A study of Mus musculus with 4 samples.

Results

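Cells commit to division in G1, and the genes that set this step were followed through embryonic mammary development. The set held 10 genes, all of them among the 30406 genes listed at every stage. It comprised the D-type cyclins Ccnd1, Ccnd2 and Ccnd3, the E-type cyclin Ccne1, the kinases Cdk4 and Cdk6, the inhibitors Cdkn1a (p21), Cdkn1b (p27) and Cdkn2c (p18), and the pocket protein gene Rb1. They were chosen by name for their role in G1, to ask which cyclin D each tissue transcribes and which arrest genes the mammary bud carries.

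D-type cyclins bind and activate Cdk4 or Cdk6, and the active kinase phosphorylates the Rb protein, which then releases E2F transcription factors. E2F drives Ccne1, whose product activates Cdk2 and carries the cell into S phase. The INK4 inhibitors such as p18 block Cdk4 and Cdk6 directly, while the Cip/Kip inhibitors p21, p27 and p57 (Cdkn1c) bind cyclin and kinase complexes more widely. Signals from outside the cell feed into this circuit chiefly through the D-type cyclins, and p21 is the best known transcriptional target of p53. In the mouse, the mammary bud is known for a pause in growth before it sprouts, and cyclin D1 is best known in this organ for its need in the alveoli of pregnancy.

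The cells came from wild-type female mice (labelled WT C57B6, with the substrain given as C57 B6/N in the study's methods), from mammary rudiments aged E13.5 to E15.5 (embryonic days, sampled at E13.5, E14.5 or E15.5) and from mammary glands at birth (P0). For each stage the tissues of several embryos or pups were pooled into 1 library, so an animal cannot be traced and stage cannot be told apart from library. EpCAM-positive and EpCAM-negative cells were sorted after removal of blood, endothelial and red cells, and they were sequenced with 10x 3' chemistry, which counts unique molecular identifiers (UMIs), 1 per captured transcript. No genotype or treatment differed between the stages, and the P0 digestion used other enzyme amounts and a red cell lysis step.

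A cell was kept with at least 5000 UMIs, of which at most 6% mitochondrial. It was called epithelium or mesenchyme by the larger of its summed UMIs of Epcam, Krt8, Krt18, Krt5 and Krt14 or of Col1a1, Col1a2 and Col3a1. This gave 98 epithelial and 135 mesenchymal cells at E13.5, 45 and 31 cells at E14.5, 532 and 283 cells at E15.5, and 230 and 273 cells at P0, with 3 kept cells in neither tissue. Kept cells had a median of 17908, 25207, 24646 and 9226 UMIs in stage order, and none shared a barcode with another library. Genes outside the rule followed the calls. The 5 epithelial check genes Cdh1, Esrp1, Dsp, Grhl2 and Cldn7 summed to between 940 and 1720 CPM (summed UMIs scaled to the same total in every group) in epithelium and to at most 56.2 CPM in mesenchyme, and the 6 mesenchymal ones (Pdgfra, Twist2, Col6a1, Col5a1, Lum and Dcn) summed to between 1684 and 8687 CPM in mesenchyme and to at most 93.5 CPM in epithelium. Markers of cells the sort should remove were low, apart from 225 UMIs of 3 immune genes and 16466 of 2 globin genes in P0 mesenchyme, where 4 cells with at least 50 globin UMIs were also left out as an alternative. The embryonic epithelium also held 501, 728 and 1652 CPM of 6 genes known from the epidermis (Krt1, Krt10, Krt15, Krtdap, Sbsn and Krt77), against 96.8 CPM at P0. Surface cells were not separated from mammary cells, and mammary cells may express some of these genes too. The study, which removed skin cells, counted far fewer mammary epithelial cells at E13.5 than the 98 epithelial cells here. Most of the E13.5 epithelium below therefore lies outside the study's mammary epithelium.

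A level below is a gene's UMIs summed over the cells of a group, as CPM of all UMIs of that group, with an exact 95% Poisson interval. A ratio of levels has an exact conditional binomial interval. Because each UMI stands for 1 transcript whatever its length, shares of UMIs within a gene family could be formed, although genes may differ in how well they are captured. With 1 library per stage there is no replicate and no test, cells are not replicates, and every interval covers counting error only. A ratio of at least 2 was used as a fixed size to count genes. Summed levels do not tell whether more cells carry a transcript or each carries more of it, so shares of cells with a UMI are given after each cell was thinned at random to 5000 UMIs.

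The D-type cyclins divided the tissues. Before birth, Ccnd2 made up most D-type cyclin transcripts of the epithelium, whereas the mesenchyme carried Ccnd2 and Ccnd1 together. At P0 the arrangement had changed on both sides. The epithelium then held less of the D-type cyclins, with a larger share of Ccnd1 than of Ccnd2, while Ccnd1 had the smallest share in the mesenchyme.

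Ccnd2 (chromosome 6, 127125162 to 127152193, minus strand, GRCm38) was the most abundant of the 10 genes in every embryonic group. In epithelium it stood at 881 CPM (interval 841 to 923, 1799 UMIs) at E13.5, 2236 CPM (2155 to 2320) at E14.5 and 1540 CPM (1520 to 1561, 22016 UMIs) at E15.5. It then stood at 63.5 CPM (54.2 to 73.9, 166 UMIs) at P0, which was 24.3-fold lower than at E15.5 (20.8 to 28.4). Of these 166 UMIs, 86 came from 18 of the 230 P0 epithelial cells, the basal marker cells defined below. In mesenchyme Ccnd2 was level before birth, at 623, 638 and 613 CPM, and 2.36-fold lower at P0 than at E15.5 (2.18 to 2.57), at 259 CPM (240 to 280). The epithelial level was therefore 1.41-fold (1.32 to 1.52), 3.50-fold (3.19 to 3.85) and 2.51-fold (2.43 to 2.60) the mesenchymal level at the 3 embryonic stages, and 4.08-fold below it at P0 (3.44 to 4.87). Counted by cell after thinning, Ccnd2 was found in 84.7%, 97.8% and 95.5% of embryonic epithelial cells and in 16.5% (12.0 to 22.0) of those at P0. In mesenchyme it was found in 87.4%, 93.5%, 90.8% and 61.9% of cells in stage order.

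Ccnd1 (chromosome 7, 144929931 to 144939925, minus strand) ran the other way. In mesenchyme it stood at 316 CPM (294 to 339, 760 UMIs) at E13.5, 428 CPM (385 to 475) at E14.5 and 240 CPM (229 to 251, 1742 UMIs) at E15.5, and at 28.3 CPM (22.1 to 35.7, 71 UMIs) at P0. In epithelium the 4 levels were 31.3 CPM (24.1 to 40.0, 64 UMIs), 104 CPM (87.5 to 124), 55.3 CPM (51.5 to 59.3) and 81.1 CPM (70.5 to 92.8, 212 UMIs). Ccnd1 was thus higher in mesenchyme at each embryonic stage, 10.1-fold at E13.5 (7.79 to 13.2), 4.10-fold at E14.5 (3.35 to 5.04) and 4.34-fold at E15.5 (3.99 to 4.73), and 2.86-fold higher in epithelium at P0 (2.18 to 3.80). After thinning, 59.3%, 83.9% and 64.0% of embryonic mesenchymal cells had a Ccnd1 UMI, against 10.2%, 37.8% and 20.5% of epithelial cells. At P0 the shares were 12.5% in mesenchyme and 25.2% in epithelium.

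Mesenchymal check genes were read in the epithelium beside the low Ccnd1 levels there. At E13.5 the 6 mesenchymal check genes reached 4.30% of their mesenchymal level in epithelium, and Ccnd1 reached 9.93%. That sum was uneven, since Dcn and Col5a1 gave 88 and 52 of its 148 UMIs, and Pdgfra, Twist2, Col6a1 and Lum gave between 1 and 3 UMIs each. At E14.5 and E15.5 the check genes reached 3.15% and 1.98%, and Ccnd1 24.4% and 23.0%. At P0 the check genes were at 0.476% in epithelium, where Ccnd1 exceeded its mesenchymal level.

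Ccnd3 (chromosome 17, 47505051 to 47599691, plus strand), the D-type cyclin best known from lymphocytes, was the steadiest of the trio in mesenchyme, with 189, 191, 138 and 143 CPM in stage order. In epithelium it stood at 131 CPM (116 to 147), 132 CPM (113 to 153) and 78.1 CPM (73.6 to 82.9) before birth and had 34 UMIs at P0, a level between 9.01 and 18.2 CPM. The embryonic ratio of mesenchyme to epithelium stayed below 2 (1.76 at E15.5, 1.62 to 1.92), and at P0 the mesenchymal level was 11.0-fold higher (7.71 to 16.1).

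Expressed as shares of all D-type cyclin UMIs, Ccnd2 took 84.5% (exact binomial interval 82.9 to 86.0), 90.4% (89.4 to 91.4) and 92.0% (91.7 to 92.4) in epithelium before birth and 40.3% (35.5 to 45.2) at P0. Ccnd1 took 3.00% (2.32 to 3.82), 4.22% (3.55 to 4.99) and 3.30% (3.08 to 3.54) before birth and 51.5% (46.5 to 56.4) at P0. In mesenchyme Ccnd1 took 28.0% (26.3 to 29.7), 34.1% (31.2 to 37.0), 24.2% (23.2 to 25.2) and 6.58% (5.17 to 8.23) in stage order. The mesenchymal share of Ccnd2 was 55.3% (53.4 to 57.2), 50.8% (47.7 to 53.8), 61.9% (60.7 to 63.0) and 60.2% (57.2 to 63.2), and Ccnd3 made up the rest, 33.2% (30.4 to 36.1) at P0. The P0 epithelium held less Ccnd2 rather than much more Ccnd1, and the 3 genes together summed to 1043, 2472 and 1674 CPM before birth and to 158 CPM at P0. In mesenchyme the sums were 1127, 1258, 990 and 430 CPM.

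**Figure D1:**
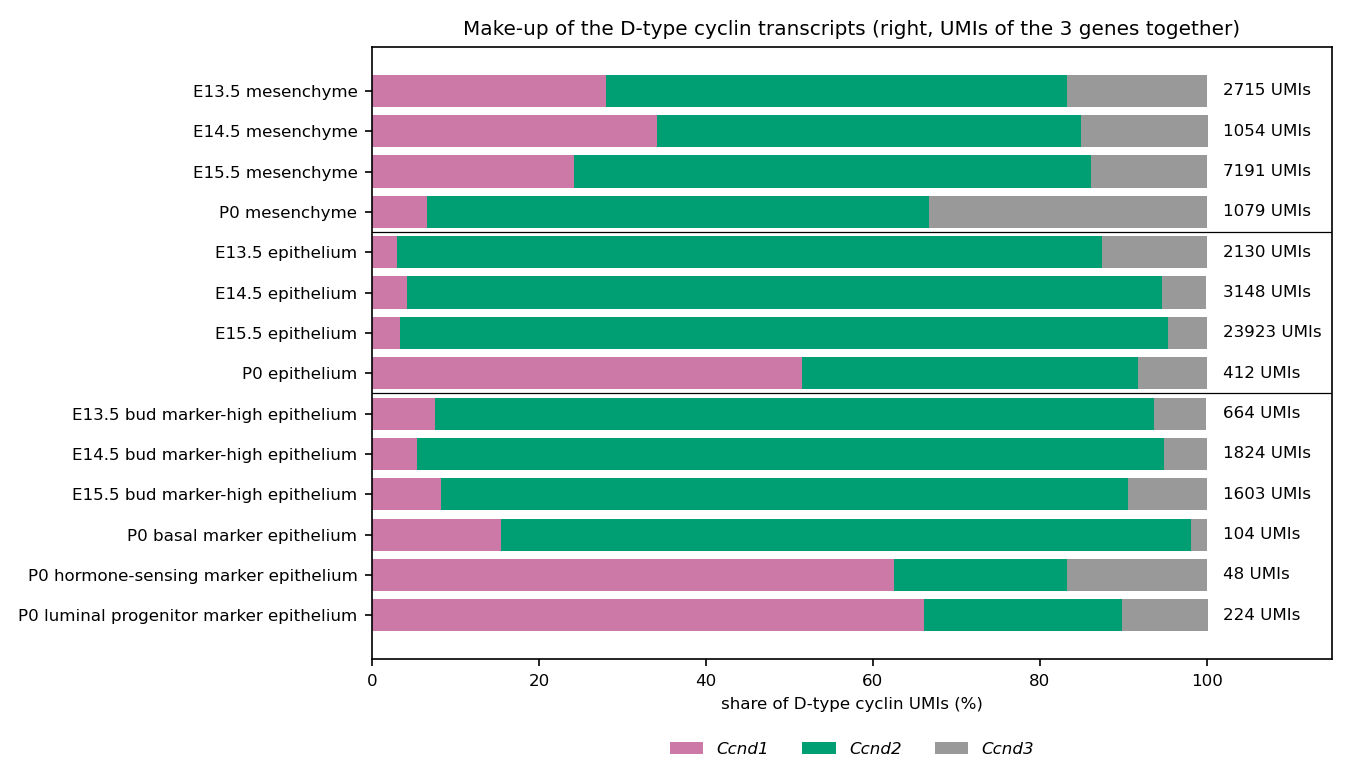
Horizontal bars give the share (%, axis 0 to 100) of Ccnd1, Ccnd2 and Ccnd3 in the D-type cyclin UMIs of each group, with the UMIs of the 3 genes together written at the right. Ccnd2 fills 84.5% to 92.0% of the embryonic epithelial bars and 82.7% of the P0 basal marker bar, while Ccnd1 fills 51.5% of the P0 epithelial bar.

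The same order held cell by cell. In epithelium, Ccnd2 was the D-type cyclin with the most UMIs in 89 of 98 cells at E13.5, 44 of 45 at E14.5 and 516 of 532 at E15.5, and Ccnd1 led in 0 cells at these 3 stages. The count of 0 of 532 cells at E15.5 allows a share of up to 0.564%, which is 3 cells. In mesenchyme Ccnd1 led in 19 of 135, 6 of 31 and 31 of 283 cells before birth. At P0 it led in 60 of 230 epithelial cells and in 4 of 273 mesenchymal cells, and 101 epithelial cells and 36 mesenchymal cells had no D-type cyclin UMI at all. These leading-gene counts used all UMIs of a cell, without thinning. Median depth was 9973 UMIs in P0 epithelium and 24696 in E15.5 epithelium, so the P0 counts were made at lower depth. After thinning, a UMI of both Ccnd1 and Ccnd2 was seen in 53.3%, 80.6% and 58.7% of embryonic mesenchymal cells, against 9.18%, 37.8% and 20.5% of epithelial cells. Among these thinned cells, none in the epithelium at E14.5 or E15.5, and 1 of 98 at E13.5, had Ccnd1 without Ccnd2. With all UMIs it was 0 of 98, 0 of 45 and 1 of 532 cells in stage order.

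Cdk4 (chromosome 10, 127063534 to 127067920, plus strand), the main partner kinase, was shared by the tissues. In epithelium it stood at 327 CPM (302 to 352), 273 CPM (245 to 303), 177 CPM (170 to 184) and 112 CPM (99.2 to 125) in stage order, and in mesenchyme at 410, 239, 220 and 85.3 CPM. Both series were lowest at P0, and no stage had the tissues 2-fold apart. Cdk6 (chromosome 5, 3341485 to 3531008, plus strand) took the smaller part of the kinase UMIs in both tissues at every stage. Its share lay between 8.70% (E13.5 mesenchyme) and 28.2% (E15.5 mesenchyme) there, and the marker classes within a tissue went outside this range. It stood at 55.8, 69.1, 64.8 and 25.6 CPM in epithelium and at 39.0, 76.4, 86.4 and 12.0 CPM in mesenchyme, and was 2.14-fold higher in epithelium at P0 (1.37 to 3.41).

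Ccne1 (chromosome 7, 38097984 to 38107534, minus strand), which acts after the D-type cyclins, stood at E13.5 at 55.8 CPM (46.1 to 67.1) in epithelium and 44.0 CPM (36.0 to 53.2) in mesenchyme, and at E14.5 at 50.3 CPM (38.7 to 64.2) and 33.4 CPM (22.2 to 48.3). The ratio of the tissues had an interval that included 1 at both stages (0.965 to 1.67 and 0.951 to 2.44). At E15.5 it stood at 82.3 CPM (77.6 to 87.1, 1176 UMIs) in epithelium and 17.4 CPM (126 UMIs) in mesenchyme, which was 4.74-fold (3.94 to 5.74). The E14.5 epithelium was uneven, since 1 cell held 33 of its 64 Ccne1 UMIs. A Ccne1 UMI was seen in 22.4% (18.9 to 26.2) of E15.5 epithelial cells after thinning. Thinning lowers this share, so it does not tell how many cells carried the transcript. At P0 Ccne1 was at 2.68 CPM (1.08 to 5.52, 7 UMIs) in epithelium and 11.6 CPM (7.74 to 16.6, 29 UMIs) in mesenchyme.

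**Figure D2:**
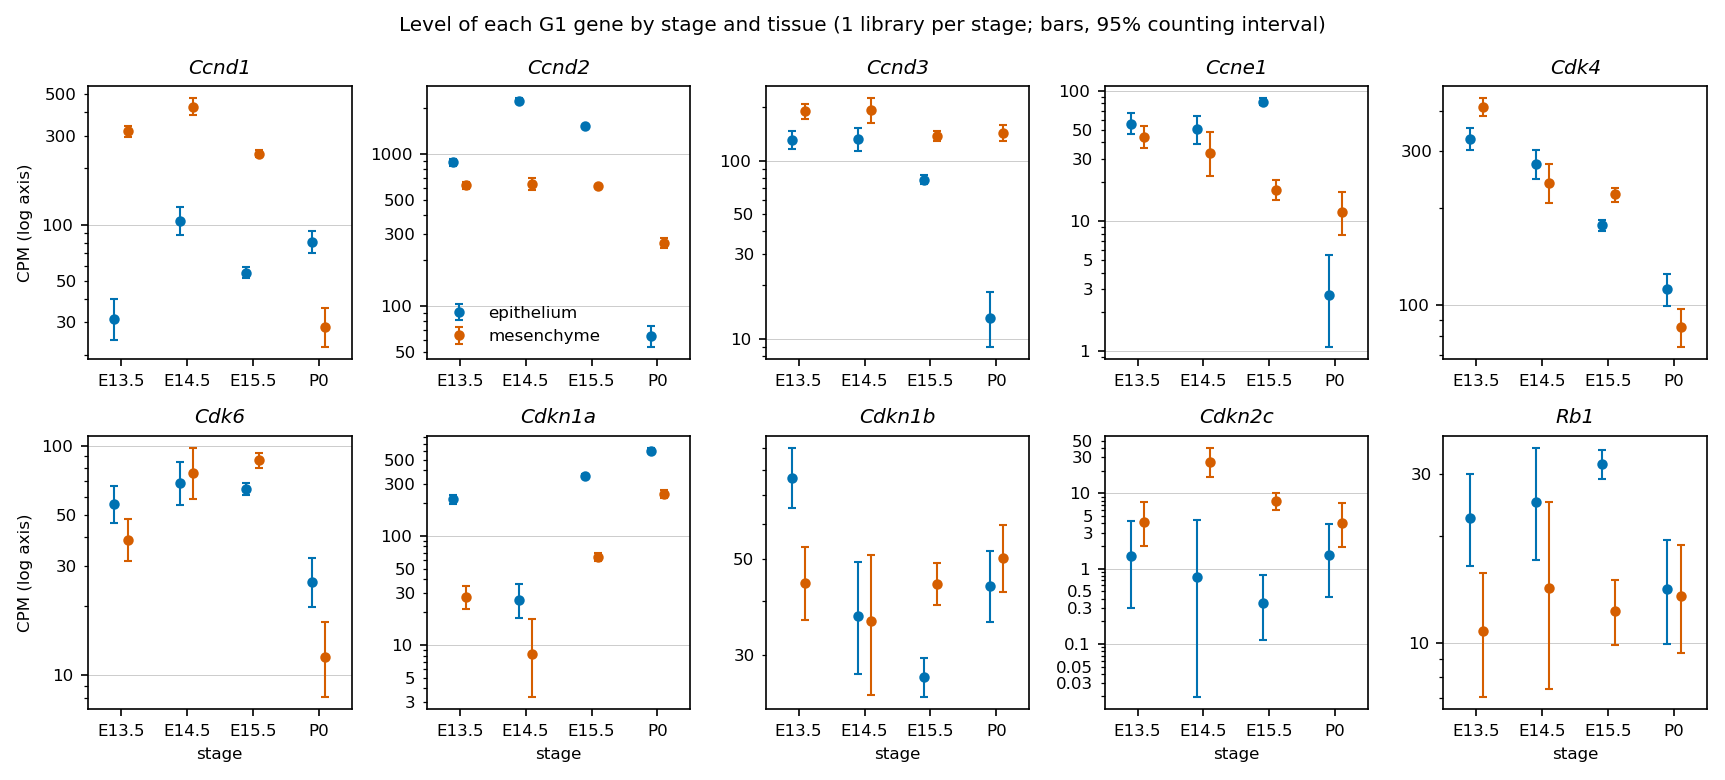
Each panel gives 1 gene, with stage on the horizontal axis, CPM on a logarithmic vertical axis that differs between panels, blue points for epithelium and orange for mesenchyme, and bars for the 95% counting interval of the 1 library of that stage. Ccnd1 and Ccnd2 each cross over between E15.5 and P0, and the blue Cdkn1a point lies above the orange point at all 4 stages.

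Of the inhibitors in the set, Cdkn1a was the one higher in epithelium at all 4 stages. Cdkn1a (chromosome 17, 29090976 to 29100727, plus strand) stood in epithelium at 216 CPM (197 to 238, 442 UMIs) at E13.5, 25.9 CPM (17.8 to 36.4, 33 UMIs) at E14.5, 357 CPM (348 to 367, 5108 UMIs) at E15.5 and 604 CPM (575 to 635, 1579 UMIs) at P0. In mesenchyme it stood at 27.4 CPM (21.2 to 34.9), 8.35 CPM (3.36 to 17.2, 7 UMIs), 64.2 CPM (58.5 to 70.3) and 242 CPM (224 to 263). The epithelial level was higher at all 4 stages, by 7.90-fold (6.09 to 10.4), 3.10-fold (1.35 to 8.31), 5.57-fold (5.06 to 6.13) and 2.49-fold (2.27 to 2.74). At E13.5 the epithelium was uneven, with 55.3 CPM (32.8 to 87.4, 18 UMIs) in its 19 bud marker-high cells, described below. Its other 79 cells stood at 247 CPM, so most of the E13.5 excess lay outside the bud marker-high cells. P0 was the highest stage and E14.5 the lowest in both tissues. From E13.5 to P0 it was 2.79-fold higher in epithelium (2.51 to 3.11) and 8.85-fold higher in mesenchyme (6.85 to 11.6). After thinning, the share of epithelial cells with a UMI was 35.7%, 4.44%, 71.1% and 83.0% in stage order.

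Cdkn1a also answers stress, and dissociation raises early response genes, so those were read beside it. The summed level of Fos, Jun, Egr1, Atf3 and Hspa1a was 1681, 3354, 3185 and 1424 CPM in epithelium and 3751, 6048, 4223 and 3547 CPM in mesenchyme. The sum was higher in mesenchyme at each stage and highest in each tissue at E14.5 (epithelium 3354 CPM). Its genes were uneven. Fos and Hspa1a were lower in epithelium at each stage. Atf3 was higher in epithelium before birth, at 412 against 177, 636 against 338 and 1055 against 553 CPM. At P0 Atf3 stood at 329 CPM in epithelium and 872 CPM in mesenchyme. Hspa1a in mesenchyme was highest at E15.5 (1690 CPM). The part of these genes in the Cdkn1a levels was not tested. The 5 epithelial check genes reached 1.37%, 1.11%, 3.25% and 3.27% of their epithelial level in mesenchyme, and Cdkn1a 12.7%, 32.2%, 18.0% and 40.1%.

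Cdkn1b (chromosome 6, 134920401 to 134925513, plus strand), the inhibitor that accumulates in resting cells, differed little between tissues. It stood at 76.9 CPM (65.3 to 89.9), 36.9 CPM (27.1 to 49.1), 26.6 CPM (24.0 to 29.4) and 43.2 CPM (35.6 to 52.0) in epithelium and at 44.0, 35.8, 43.8 and 50.2 CPM in mesenchyme. Epithelium was 1.75-fold higher at E13.5 (mesenchyme 44.0 CPM, 36.0 to 53.2) and mesenchyme 1.65-fold higher at E15.5 (1.42 to 1.92), and the other stages had overlapping intervals. The bud marker-high cells of E13.5, described below, stood at 30.7 CPM (14.7 to 56.5). Much p27 control is known to act on the protein, which these data do not measure.

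Cdkn2c (chromosome 4, 109660876 to 109667189, minus strand) was nearly absent from epithelium, with 3, 1, 5 and 4 UMIs in all at the 4 stages. In mesenchyme it had 10 UMIs (4.15 CPM) at E13.5, 22 UMIs (26.3 CPM, 16.5 to 39.7) at E14.5, 57 UMIs (7.85 CPM, 5.95 to 10.2) at E15.5 and 10 UMIs (3.99 CPM) at P0. The mesenchymal level was 22.4-fold higher at E15.5 (9.08 to 71.8), where the counts were largest, and the E14.5 ratio of 33.4 had an interval from 5.40 to 1379 because it rested on 1 epithelial UMI.

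Rb1 (chromosome 14, 73183673 to 73325822, minus strand), the target of the cyclin D kinases, was low throughout. In epithelium it stood at 22.5 CPM (16.5 to 30.1), 25.1 CPM (17.2 to 35.5), 32.0 CPM (29.1 to 35.0) and 14.2 CPM (9.96 to 19.5), and in mesenchyme between 10.8 and 14.3 CPM. Epithelium was 2.09-fold higher at E13.5 (1.26 to 3.52) and 2.61-fold higher at E15.5 (2.07 to 3.31), and at P0 the ratio was 1.04 (0.637 to 1.71). The Rb1 locus overlaps Gm17233 and Mir687 on its own strand, so reads of these could not be told apart from it.

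Counted over the set against all genes with a mean of at least 10 CPM in the pair of groups, the tissues differed at E13.5 in 2 of 9 counted members higher in epithelium (Cdkn1a and Rb1), where 9.33% of 8479 genes were at least 2-fold higher, and in 1 lower (Ccnd1), against 17.7% of genes. At E14.5, 2 of 10 were higher (Ccnd2 and Cdkn1a) and 2 lower (Ccnd1 and Cdkn2c), against 1201 of 8893 genes higher and 18.4% lower. At E15.5, 4 of 9 were higher (Ccnd2, Ccne1, Cdkn1a and Rb1) and 1 lower (Ccnd1), against 13.8% and 17.0% of 7911 genes. At P0, 3 of 8 were higher (Ccnd1, Cdk6 and Cdkn1a) and 2 lower (Ccnd2 and Ccnd3), against 23.1% and 17.2% of 7778 genes. Cdkn2c fell under the minimum at 3 of these stages and Ccne1 at P0. The median log2 ratio of the counted members was 0.50, 0.12, -0.32 and 0.23, beside -0.12, 0.00, -0.03 and 0.33 over all genes, so the set had no common direction between the tissues. Among members that reached the minimum at each stage, Cdkn1a was at least 2-fold apart in 1 direction at all 4 stages. Cdkn2c, mostly under the minimum, was lower in epithelium at each, with intervals that included no difference at E13.5 (0.0626 to 1.37) and P0 (0.0878 to 1.33).

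The stages were compared next. Between E13.5 and P0 in epithelium, 5 of 9 counted members were at least 2-fold lower at P0 (Ccnd2, Ccnd3, Ccne1, Cdk4 and Cdk6), against 18.8% of 7896 genes, and 2 were higher (Ccnd1 and Cdkn1a), against 16.0%. The epithelial counts depend on which E13.5 cells are read, since 79 of its 98 cells were not bud marker-high (a class defined below). Ccnd1 stood at 31.3 CPM in all E13.5 epithelium, at 154 CPM in its bud marker-high cells and at 81.1 CPM in P0 epithelium. In the same order Cdk4 stood at 327, 215 and 112 CPM and Cdk6 at 55.8, 43.0 and 25.6 CPM. Ccnd2 stood at 881, 1758 and 63.5 CPM and Cdkn1a at 216, 55.3 and 604 CPM. Bud marker-high cells alone were not counted against P0. In mesenchyme 5 of 9 were lower (Ccnd1, Ccnd2, Ccne1, Cdk4 and Cdk6), against 33.3% of 8392 genes, and Cdkn1a alone was higher, against 13.8%. The medians were -1.12 and -1.27 on the log2 scale, beside -0.16 and -0.56 over all genes. The lower members were all cyclins and kinases. Outside the set, the inhibitor genes Cdkn1c and Cdkn2d were also lower at P0 in epithelium, by 2.92-fold (2.50 to 3.41) and 2.88-fold (1.56 to 5.56). The P0 epithelium was mostly luminal progenitor marker cells (161 of 230, a class defined below). Its 18 basal marker cells stood at 840 CPM of Cdkn1c. That was above the 264 CPM of all E13.5 epithelium and the 400 CPM of the E13.5 bud marker-high cells. Stage and the make-up of the P0 epithelium were not separated in these counts. In mesenchyme Cdkn2d was 3.05-fold lower (1.67 to 5.91) and Cdkn1c 1.50-fold lower (1.43 to 1.57). Cdkn1b and Rb1 were within 2-fold in both tissues, and Cdkn2c was under the minimum.

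The sizes differed by gene. In epithelium from E13.5 to P0, Ccne1 was 20.9-fold lower (9.80 to 53.0), Ccnd2 13.9-fold (11.8 to 16.4), Ccnd3 10.1-fold (7.02 to 14.8), Cdk4 2.93-fold (2.55 to 3.37) and Cdk6 2.18-fold (1.60 to 2.99). In mesenchyme Ccnd1 was 11.1-fold lower (8.73 to 14.4) and Cdk4 4.80-fold (4.14 to 5.59). Cells called cycling were those with at least 3 UMIs of 12 S, G2 and M phase genes after thinning. They made up 40.8%, 17.8%, 19.4% and 6.52% of the epithelium and 38.5%, 35.5%, 32.9% and 1.83% of the mesenchyme. In each tissue as called here, the share was also lowest at P0. At E13.5, 39 of the 79 epithelial cells that were not bud marker-high were called cycling. Of the 19 bud marker-high cells 1 was (5.26%, 0.133 to 26.0), an interval that includes the 6.52% of P0 epithelium. How much of the change belongs to stage and how much to the library cannot be told apart.

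The mammary bud was examined inside the epithelium. Epithelial cells with at least 500 CPM of Ndnf, Msx1, Tbx3, Sostdc1 and Pthlh together, genes known from the embryonic bud, were called bud marker-high. There were 19 of 98 at E13.5, 23 of 45 at E14.5 and 43 of 532 at E15.5. The remaining epithelial cells carried more epidermal transcripts, 571 against 132 CPM at E13.5, 1191 against 281 CPM at E14.5 and 1721 against 660 CPM at E15.5, with uneven sources. At E14.5 single cells held 194 of the 257 Krtdap UMIs and 121 of the 148 Krt10 UMIs of the other cells. At E15.5 Krtdap gave 902 of the 1721 CPM, and Krt15 was higher in the bud marker-high cells, at 490 against 363 CPM. The part of this list in the comparisons was not tested. After removing contaminating skin cells, the study counted far fewer mammary epithelial cells at E13.5 than the 98 epithelial cells here. Most of the other cells at E13.5 therefore lie outside its mammary count. At E14.5 it counted fewer than the 45 epithelial cells here. Its cells were not matched with those here, and the other cells at both stages may include mammary cells that lack these markers. For E15.5 the study counted many more mammary epithelial cells than the 43 marker-high cells here. The other cells at that stage, 489 of 532, therefore include mammary cells. The study also reports Pthlh, Sostdc1 and Msx1 as enriched in its basal-like mammary cells of E15.5. It names Ndnf as a basal marker of that stage too, and Ndnf was the highest of these markers in the E15.5 marker-high cells. Between 250 and 1000 CPM of bud markers, on either side of this limit, lay 9, 17 and 95 epithelial cells. None of the set's genes took part in the choice.

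At E13.5 the bud cells were set apart by Ccnd1, Ccnd2 and a low level of Cdkn1a, and few of them were called cycling. Ccnd1 stood at 154 CPM (114 to 203, 50 UMIs) in the 19 bud marker-high cells and at 8.16 CPM (4.46 to 13.7, 14 UMIs) in the other 79, an 18.8-fold difference (10.3 to 36.9). Ccnd2 stood at 1758 CPM (1617 to 1908) and 715 CPM (675 to 756), 2.46-fold (2.22 to 2.72). The lower inhibitors were Cdkn1a, at 55.3 CPM (32.8 to 87.4, 18 UMIs) against 247 CPM (224 to 272), and Cdkn1b, at 30.7 CPM (14.7 to 56.5, 10 UMIs) against 85.7 CPM (72.4 to 101). Cdkn1a was thus 4.47-fold lower (2.79 to 7.61) and Cdkn1b 2.79-fold lower (1.47 to 5.93) in the bud marker-high cells. Of these cells 1 of 19 was called cycling, a share of 5.26% (0.133 to 26.0), against 39 of 79 or 49.4% (37.9 to 60.9).

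The other members varied less there. Cdk4 was 1.62-fold lower in the bud marker-high cells (1.26 to 2.10), at 215 against 348 CPM. The ratios of bud to other cells for Ccnd3 (0.985, 0.691 to 1.37), Ccne1 (1.06, 0.609 to 1.74), Cdk6 (0.739, 0.390 to 1.30) and Rb1 (1.11, 0.448 to 2.42) had intervals that included 1. Cdkn2c had 0 UMIs in bud cells, where 3 UMIs would be 9.22 CPM, and 3 in the rest. In all, 2 of 9 counted members were at least 2-fold higher, against 15.0% of 7910 genes, and 2 lower, against 9.05%. The median log2 ratio was -0.02, beside 0.14 over all genes.

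Of the 64 epithelial Ccnd1 UMIs at E13.5, 50 fell in the 19 bud marker-high cells and 14 in the other 79. In the other epithelial cells Ccnd1 was at 2.59% of the mesenchymal level, beside 4.74% for the sum of the mesenchymal check genes, most of which came from Dcn and Col5a1 in the epithelium as a whole. Of these 79 cells, 13 had a Ccnd1 UMI before thinning. The part of free RNA in them was not tested. In the bud cells it was at 48.7% of the mesenchymal level, where the check genes were at 2.01%. After thinning, 42.1% (20.3 to 66.5) of bud marker-high cells had a Ccnd1 UMI, and all of these also had Ccnd2. Ccnd2 was still the leading D-type cyclin in 19 of 19 bud cells, and Ccnd1 made up 7.53% (5.64 to 9.81) of their D-type cyclin UMIs.

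Because the bud held few cycling cells, the comparison was repeated among cells not called cycling, 18 against 40. Ccnd1 was then 21.3-fold higher in bud cells (9.11 to 60.7), Ccnd2 2.03-fold higher (1.81 to 2.27) and Cdkn1a 7.21-fold lower (3.83 to 15.3). Cdkn1b was at 30.9 against 59.1 CPM, with a ratio whose interval included 1 (0.224 to 1.08). The stress genes stood at 1727 CPM in the bud cells and 1672 CPM in the other epithelium at E13.5, and median depth at 16883 and 21747 UMIs.

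The same lists were read at E14.5 and E15.5, where the marker-high and other cells need not be the same kinds of cells as at E13.5. At E15.5 the comparison was in part one within the mammary epithelium, because the other cells include mammary cells. Ccnd1 was 2.81-fold higher in bud cells at E14.5 (1.89 to 4.28), at 153 against 54.4 CPM, and 2.90-fold higher at E15.5 (2.39 to 3.49), at 142 against 49.2 CPM. The bud level hardly differed between the 3 stages (154, 153 and 142 CPM), and it was the other epithelium that was higher at E14.5 and E15.5 than at E13.5. For Ccnd2 the ratio was 1.30 (1.20 to 1.40) at E14.5, or 1.08 (0.995 to 1.17) without cycling cells, and 0.912 (0.862 to 0.964) at E15.5. Cdkn1a was 1.99-fold lower in bud cells at E15.5 (1.71 to 2.33), at 185 against 369 CPM, and at E14.5 its 21 and 12 UMIs gave a ratio of 1.69 with an interval from 0.794 to 3.77.

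Cdkn1b changed sides, with a bud to other ratio of 0.359 (0.169 to 0.679) at E13.5 and of 2.42 (1.79 to 3.23) at E15.5, where it stood at 58.9 CPM in bud cells and 24.3 CPM in the rest. Cdk4 did likewise, at 0.619 (0.476 to 0.793) and 1.59 (1.39 to 1.81). Ccnd3 was 2.24-fold higher in bud cells at E15.5 (1.87 to 2.66), at 162 against 72.3 CPM. Ccne1 was 2.29-fold higher at E14.5 (1.31 to 4.14), of which 33 of 45 UMIs came from 1 cell. Cells called cycling were 3 of 23 bud and 5 of 22 other cells at E14.5, and 7 of 43 and 96 of 489 at E15.5, and the stress genes were higher in bud cells at E15.5, at 4414 against 3099 CPM. The other cells also differed in kind, since most at E13.5 lay outside the study's mammary count and those at E15.5 included mammary cells. The part of this in the changes between stages was not tested. Whether these changes exceed the difference between 2 libraries of 1 stage was not tested either.

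**Figure D3:**
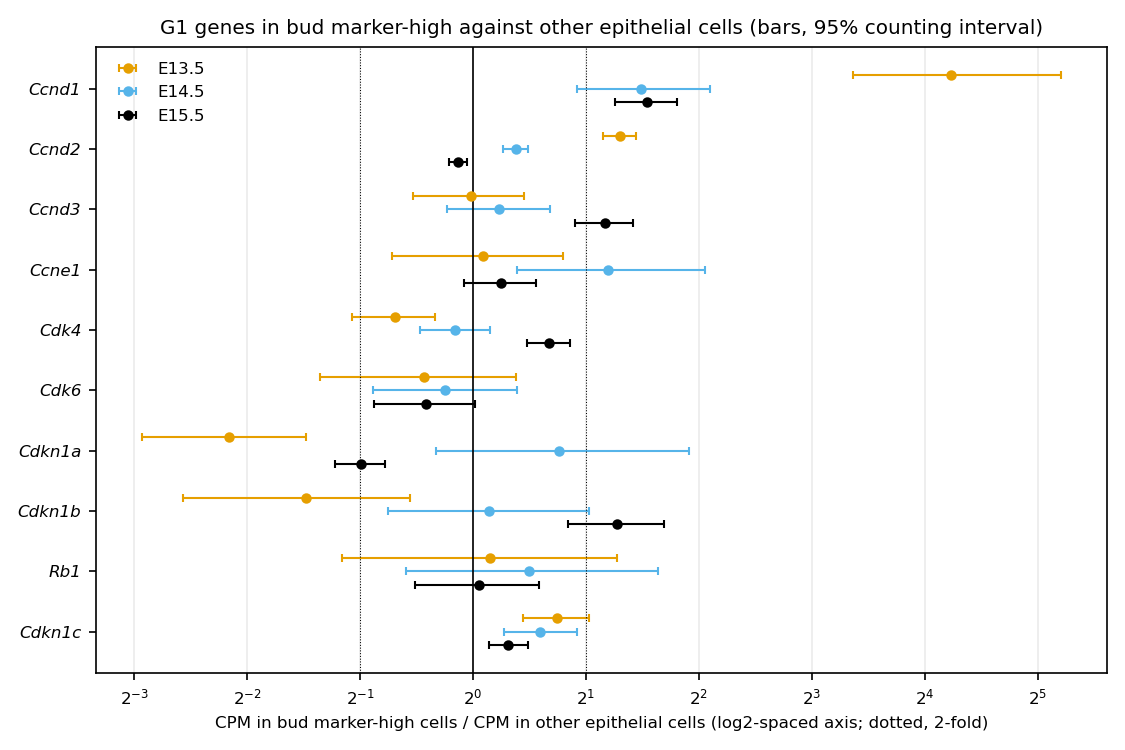
Points give, for each gene, the level in bud marker-high cells over that in the other epithelial cells for the 3 embryonic stages on a log2-spaced axis, with 95% counting intervals and dotted lines at 2-fold. Ccnd1 lies right of 1 at the 3 stages (18.8, 2.81 and 2.90), Cdkn1a lies left of 1 at E13.5 and E15.5, and Cdkn1b and Cdk4 lie left at E13.5 and right at E15.5 (Cdkn2c, with 0 UMIs in bud cells, is not drawn).

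A further Cip/Kip inhibitor, outside the set, was higher in mesenchyme. Cdkn1c (p57), an imprinted gene known to hold progenitors out of the cycle, was one of 28 other genes of the pathway that were read alongside. It stood at 1797, 2106, 900 and 1200 CPM in mesenchyme and at 264, 268, 265 and 90.7 CPM in epithelium. Mesenchyme was 6.80-fold (6.21 to 7.45), 7.86-fold, 3.40-fold (3.26 to 3.54) and 13.2-fold (11.6 to 15.2) higher in stage order, the E14.5 ratio of epithelium to mesenchyme being 0.127 (0.113 to 0.143). The mesenchyme was uneven. At E15.5 Cdkn1c stood at 2896 CPM in 71 mesenchymal cells with more dermal (Plagl1) marker UMIs. It stood at 394 CPM in 212 cells with more sub-epithelial (Esr1, Lef1, Crabp1) marker UMIs. Within the epithelium it was higher in bud cells at each embryonic stage, 1.67-fold at E13.5 (1.36 to 2.04), 1.51-fold at E14.5 (1.21 to 1.89) and 1.24-fold at E15.5 (1.10 to 1.40). At E13.5 it reached 400 CPM there, above Cdkn1a at 55.3 CPM and Cdkn1b at 30.7 CPM, so it was the most abundant of the 3 Cip/Kip transcripts there. Among cells not called cycling its ratio was 1.80 (1.42 to 2.29) at E13.5 and 1.07 (0.845 to 1.36) at E14.5.

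Trp53, which encodes p53, was higher in epithelium, as Cdkn1a was. It stood at 254, 209, 223 and 94.9 CPM in epithelium and at 103, 66.8, 93.7 and 35.9 CPM in mesenchyme, so it was between 2.39-fold and 3.13-fold higher in epithelium at the 4 stages. Across stages Trp53 and Cdkn1a differed, since epithelial Trp53 was lowest at P0, where Cdkn1a was highest. In the bud marker-high cells at E13.5, where Cdkn1a was lower, Trp53 was 1.35-fold higher than in the other epithelium (1.08 to 1.68). Skp2, the ubiquitin ligase subunit that marks p27 for destruction, was higher in mesenchyme before birth, 4.04-fold at E13.5 (2.83 to 5.89), 2.81-fold at E14.5 (1.59 to 5.11) and 4.81-fold at E15.5 (3.74 to 6.24). Of the other pathway genes 25, 25, 25 and 15 reached the minimum at the 4 stages, with 3, 4, 2 and 3 at least 2-fold higher and 3, 8, 6 and 4 lower in epithelium. Over all genes the lowest and highest of the 4 shares were 9.33% and 23.1% higher, and 17.0% and 18.4% lower.

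In the bud cells at E13.5, 8 of 24 counted pathway genes were at least 2-fold lower and 2 higher than in the other epithelium, beside 9.05% lower and 15.0% higher over all genes. The lower ones were the E2F factors E2f1, E2f7 and E2f8, the E2F partner Tfdp2, the pocket protein gene Rbl1, Skp2, its cofactor Cks1b and the stress gene Gadd45a. E2f7 had 9.22 against 61.8 CPM and Cks1b 160 against 334 CPM. However, 5 of the 8 (E2f1, E2f8, Rbl1, Skp2 and E2f7) had no more than 5 UMIs in the bud cells. The intervals of E2f1, E2f8, Rbl1 and Skp2 included 1. Of the bud cells 1 of 19 was called cycling, against 39 of the 79 other cells. These pathway genes were not read again among cells not called cycling, so the part of cycling cells in the differences was not tested. The higher ones were Btg2, an antiproliferative gene, at 221 against 90.3 CPM, and Mdm2, the p53 inhibitor and target, at 117 against 57.1 CPM. Mdm2 was therefore higher in the cells in which Cdkn1a was lower. Between E13.5 and P0, 14 of 25 pathway genes were at least 2-fold lower and 3 higher in epithelium, beside 18.8% and 16.0% of all genes. In mesenchyme 16 of 24 were lower and 4 higher, beside 33.3% and 13.8%.

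At P0 the epithelium was divided by marker lists into 18 basal, 39 hormone-sensing and 161 luminal progenitor marker cells, with 12 left over. Basal marker cells had at least 500 CPM of Acta2, Myh11, Mylk and Cnn1 together, hormone-sensing marker cells at least 200 CPM of Prlr, Cited1, Esr1 and Pgr, and luminal progenitor marker cells at least 500 CPM of Aldh1a3, Kit, Elf5 and Wfdc18, taken in this order. The D-type cyclins followed these classes. Ccnd2 stood at 440 CPM in basal marker cells (myoepithelial genes such as Acta2), 16.2 CPM in hormone-sensing and 32.0 CPM in luminal progenitor marker cells, 13.8-fold higher in basal than in luminal progenitor marker cells (9.66 to 19.8). It was the leading D-type cyclin in 14 of the 18 basal marker cells. Ccnd1 stood at 81.9, 48.6 and 89.3 CPM in the same order, so basal and luminal progenitor marker cells had a ratio near 1 (0.917, 0.511 to 1.54) and the hormone-sensing level was 1.84-fold below the luminal progenitor level (1.23 to 2.82).

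The kinases and inhibitors also differed by class. Hormone-sensing marker cells had 1.64-fold more Cdk4 than luminal progenitor marker cells (1.25 to 2.13), at 152 against 93.0 CPM, and 2.71-fold less Cdk6 (1.23 to 7.09), at 11.3 against 30.8 CPM. Cdkn1a was high in all of them, at 722, 454 and 631 CPM in basal, hormone-sensing and luminal progenitor marker cells. Cdkn1c was 24.4-fold higher in basal than in luminal progenitor marker cells (17.9 to 33.6), at 840 against 34.4 CPM. Cells called cycling were 0 of 18, 7 of 39 and 5 of 161 in the same order, and the basal count of 0 allows a share of up to 16.7%, which is 3 of 18 cells.

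Cells called cycling were compared with the rest of their tissue. The call used S, G2 and M phase genes, so dividing cells in G1 count among the rest. Ccnd2 was lower in cycling cells in both tissues at each embryonic stage. In epithelium it stood at 528 against 1224 CPM at E13.5, 1145 against 2644 CPM at E14.5 and 1121 against 1683 CPM at E15.5, which was 2.32-fold (2.09 to 2.57), 2.31-fold (2.08 to 2.57) and 1.50-fold (1.45 to 1.55) lower. Of the 40 cycling epithelial cells at E13.5, 39 were not bud marker-high, and the bud marker-high cells held more Ccnd2. The part of this in the E13.5 difference was not tested. In mesenchyme the drop was 1.23-fold (1.11 to 1.37), 1.65-fold (1.38 to 1.98) and 2.05-fold (1.91 to 2.19). The cycling cells carried more UMIs (a median of 33270 against 23567 in E15.5 epithelium), which enters every CPM.

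Ccnd1 had no such common pattern. In E13.5 epithelium it was 6.80-fold lower in cycling cells (3.22 to 16.5), where 39 of the 40 cycling cells were not bud marker-high. Of the 56 Ccnd1 UMIs in non-cycling cells there, 50 lay in 18 bud marker-high cells and 6 in the other 40. Those other non-cycling cells stood at 8.07 CPM and the cycling cells, with 8 UMIs, at 7.95 CPM. The 6.80-fold ratio therefore rests on the bud marker-high cells. At E15.5 its epithelial ratio was 1.04 (0.880 to 1.22), and in mesenchyme it was 1.38-fold lower in cycling cells (1.25 to 1.52).

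**Figure D4:**
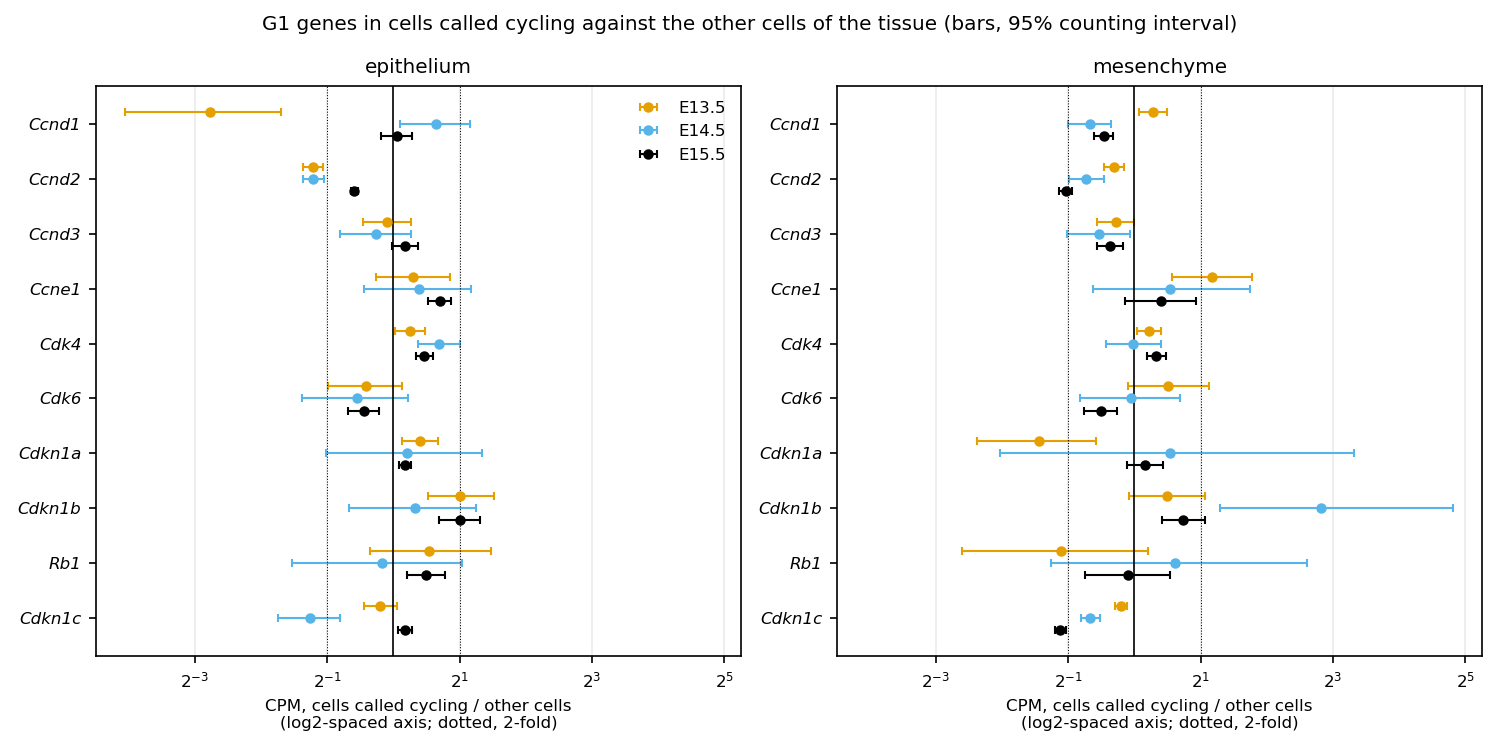
Points give the level in cells called cycling over that in the other cells of the epithelium (left) and of the mesenchyme (right) for the 3 embryonic stages on a log2-spaced axis, with 95% counting intervals and dotted lines at 2-fold. Ccnd2 lies left of 1 in both tissues at the 3 stages, and Cdkn1b lies right of 1 with its interval clear of 1 in E13.5 and E15.5 epithelium and in E14.5 and E15.5 mesenchyme.

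Cdk4 was a little higher in cycling cells, 1.38-fold in epithelium (1.27 to 1.51) and 1.26-fold in mesenchyme (1.14 to 1.39) at E15.5, and Ccne1 was 1.63-fold higher in E15.5 epithelium (1.44 to 1.83) and 2.25-fold in E13.5 mesenchyme (1.49 to 3.44). Inhibitor transcripts differed by gene. Cdkn1b was higher in cycling cells, 2.02-fold in E13.5 epithelium (1.44 to 2.87), 2.00-fold in E15.5 epithelium (1.62 to 2.47) and 1.66-fold in E15.5 mesenchyme (1.33 to 2.09). Cdkn1a was 1.13-fold higher in E15.5 epithelium (1.06 to 1.20), and 2.71-fold lower in E13.5 mesenchyme (1.50 to 5.18). Cdkn2c had 14.8 against 3.03 CPM in E15.5 mesenchyme, 4.90-fold (2.59 to 9.92), while Cdkn1c was 2.17-fold lower there (2.05 to 2.30).

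Over the 8 groups of stage and tissue, the genes whose log2 level (10 CPM added) ran most like that of a member were found among 6237 genes with a mean of at least 20 CPM. For Ccnd1 they were Ptpn9, Tead2 and Cox20, with Pearson r of 0.986, 0.976 and 0.969. For Ccnd2 they were Jarid2, Ssbp2 and Fbxl20 (0.983, 0.959 and 0.949), and for Cdkn1a Eif1, Furin and Anxa1 (0.990, 0.959 and 0.944). These are descriptions over 8 groups that share 4 libraries in pairs, and among 6237 genes high values are common.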

How the data were processed

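The authors aligned the reads to mm10 with Cell Ranger and deposited UMI counts per gene and cell, with 1 matrix per stage. The headers name version 3.1.0 for E15.5 and 6.0.0 for the rest, so a difference of E15.5 from the other stages cannot be told apart from the software version. The 4 libraries held 981, 807, 2642 and 1466 barcodes, of which 235, 76, 816 and 503 cells were kept. The authors excluded doublets at the sort. No doublet caller was run here, so doublets among the sequenced cells were not assessed. In Python 3.11.15 (numpy 2.4.6, scipy 1.17.1, pandas 2.3.3), UMIs were summed per group, with exact 95% Poisson and binomial intervals that cover counting error only. The interval functions were checked on simulated data. Named genes were all 10 members, pathway genes at least 2-fold apart between tissues at 3 or 4 stages or between bud and other cells at E13.5, and the 3 genes most like Ccnd1, Ccnd2 and Cdkn1a. Further values of the named genes in cell classes follow the same lists. The members and lists were chosen with earlier results of these data known. Gene positions are from GENCODE M21.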

Additional observations from a re-analysis of the deposited data

Results flagged for a closer look

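For 6 members the difference between epithelium and mesenchyme had opposite signs at different stages, with counting intervals clear of no difference on both sides. On the log2 scale of epithelium over mesenchyme, Ccnd1 was at -3.33 at E13.5 and 1.52 at P0. Ccnd2 was at 1.81 at E14.5 and -2.03 at P0. Ccne1 was at 2.25 at E15.5 and -2.11 at P0, the latter from 7 epithelial UMIs. Cdk6 was at -0.41 at E15.5 and 1.10 at P0, and the smaller differences were those of Cdk4, at -0.33 at E13.5 and 0.39 at P0, and Cdkn1b, at 0.81 at E13.5 and -0.72 at E15.5. The Cdkn1b sign at E13.5 was that of the epithelial cells that were not bud marker-high (85.7 CPM). The bud marker-high cells stood at 30.7 CPM and the mesenchyme at 44.0 CPM. With 1 library per stage the difference between stages was not tested.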

How the results depend on the processing

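Of 482 alternative values, 440 stayed within the counting interval or within 1.5 times the count, 42 moved further and 0 turned direction. Without cells called cycling, the Ccnd1 share of epithelial D-type cyclin UMIs was 3.83%, 3.16% and 3.02% at the embryonic stages in order, and the Ccnd2 share in mesenchyme was 58.0% for E13.5 and 64.7% for E15.5. That mesenchymal share was 41.2% at E14.5 with every cell thinned to 5000 UMIs and 60.6% at E15.5 in clear-cut cells. Members at least 2-fold higher in epithelium at E13.5 numbered 1 in place of 2, both without cycling cells and with the mean of per-cell CPM. Without cycling cells they numbered 4 in place of 2 at E14.5, and those higher in mesenchyme numbered 1 in place of 2 there and 2 in place of 1 at E15.5. The causes were not tested. No paired analysis was possible because each stage has 1 library. Leaving out the 4 globin-rich P0 cells was chosen after seeing the data. E14.5, with 76 kept cells, limits the precision most.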

Other observations

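The embryonic mesenchyme was divided into cells with more sub-epithelial (Esr1, Lef1, Crabp1) and cells with more dermal (Plagl1) marker UMIs, 68 and 57 at E13.5, 13 and 18 at E14.5, and 212 and 71 at E15.5. Cdk6 was 3.94-fold higher in the sub-epithelial marker cells at E13.5 (2.27 to 7.23), at 61.4 against 15.6 CPM, and 2.76-fold higher at E14.5 (1.62 to 4.82), whereas at E15.5 it stood at 81.3 against 106 CPM. Ccnd2 was 1.66-fold higher at E13.5 (1.49 to 1.86) and 1.43-fold at E14.5 (1.20 to 1.70), and Ccnd1 1.39-fold (1.19 to 1.62) and 1.42-fold (1.15 to 1.76). At E15.5 neither was higher in the sub-epithelial marker cells. The D-type cyclins together stood there at 957 CPM, against 1124 CPM in the dermal marker cells. Ccnd2 took 61.8% and 62.0% of these UMIs in the same order, and Ccnd1 24.9% and 22.0%. Ccnd3 was higher in the dermal marker cells at the 3 stages, by 1.42-fold, 1.60-fold and 1.41-fold. Cdkn1c was also higher there, by 2.23-fold (2.09 to 2.38), 4.76-fold (4.12 to 5.52) and 7.35-fold (6.98 to 7.73). The study itself chose Cdkn1c, with the genes of these lists, as a marker of its mesenchymal clusters in the same E15.5 data. The direction of Cdkn1c at E15.5 was therefore given beforehand and is no separate result. Cells called cycling made up 47.1%, 53.8% and 40.1% of the sub-epithelial and 26.3%, 22.2% and 11.3% of the dermal marker cells, and their part in these differences was not tested.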
